A study of Homo sapiens with 24 samples.

Results

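The genes described here are 50 genes of mitosis, the stage at which a cell divides its copied chromosomes, and they were taken by symbol from the platform annotation of the deposited array values. The probe with the highest mean over the 24 arrays stood for each gene, and 49 of the 50 passed the filter on dim probes, out of 12445 genes tested in all. RNA came from SKBR3, a human breast cancer line in which ERBB2, which encodes the growth factor receptor HER2, is amplified. Lentivirus delivered hairpins against PMCA2 (a calcium pump of the plasma membrane, encoded by ATP2B2), NHERF1 (a PDZ scaffold protein) or HER2, and the series set these knockdowns against control cells. The 4 groups were the PMCA2 knockdown, the NHERF1 knockdown, the HER2 knockdown and the control, each of 6 Illumina arrays. By their labels all 4 share the line, the medium and 48 h of infection, and the source name of the control names no hairpin. No separate cultures, clones or pools are named, so p-values here cover the spread among arrays alone, and that spread may be technical.

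Arrays were spread over 2 chips with 3 arrays of each group on each, and each group held chip positions of its own, so the effect of position cannot be told apart from that of group. Across genes, the median correlation was 0.996 between arrays of 1 group on 1 chip, 0.973 between different knockdowns and 0.918 between a knockdown and a control array. The group names used here are those of the labels, and the targeted genes check them only in part. NHERF1 stood at 8.10% of control in its own knockdown (limma adjusted p = 1.81e-28), and at 54.1% in the PMCA2 and 62.9% in the HER2 knockdown. ERBB2, however, stood at 50.9%, 31.5% and 53.3% of control in the knockdowns of PMCA2, NHERF1 and HER2, and was thus not lowest where it is the labelled target. ATP2B2 lay above the floor, the intensity set by olfactory receptor probes, on 1 array of the 24, so the PMCA2 label has no check. Markers of the labelled line moved with the groups. Of 19 measured markers of a luminal HER2-positive breast line, 13 lay above the floor on every array in each knockdown and 18 in the control, and SPDEF, AZGP1, SCGB2A2, BCAS1 and TFAP2B did so on no knockdown array. Of the 19, 2 were higher and 15 lower in the PMCA2, 3 and 16 in the NHERF1 and 3 and 16 in the HER2 knockdown. FOXA1, a transcription factor of luminal cells, averaged log2 5.01 in the PMCA2, 6.30 in the NHERF1 and 6.06 in the HER2 knockdown, against 11.34 in the control. GATA3 and KRT8, of the same list, went the other way. GATA3 averaged 6.90, 6.27 and 6.75 in the same order, against 4.63 in the control, and KRT8 12.70, 12.64 and 13.15, against 12.40. The labels give 1 line to all groups, but with markers this far apart it is in doubt that knockdown and control arrays hold the same line, and a difference of line cannot be told apart from the knockdowns in any comparison with control. The summed intensity of the 19 was 35010 to 35970 in the PMCA2, 26940 to 27620 in the NHERF1 and 32450 to 34240 in the HER2 knockdown, against 65260 to 69100 in the control. Of 24 trophoblast markers, 14, 11 and 9 lay above the floor on every array of these knockdowns, against 5 in the control. They moved both ways: of 18 tested, 16 were higher and 1 lower in the PMCA2, 9 and 6 in the NHERF1 and 10 and 6 in the HER2 knockdown. HSD3B1 and CAPN6 lay above the floor on every knockdown array and on no control array, while PSG4 averaged log2 9.30, 5.23 and 4.76 in the knockdowns, against 7.67 in the control, and KISS1 was lower in each knockdown. The sums over the 24 were 8470 to 9120, 4909 to 5061 and 3349 to 3554 in the knockdowns, against 2688 to 2742 in the control. All marker sums here are of deposited intensities with the background left in, where the median probe of an array read 102.9. Sums over dim markers are therefore mostly background. Fibroblast and blood cell markers summed to 1016 to 1125 and 822.7 to 935.6 over all knockdown arrays, against 969.6 to 996.6 and 819.2 to 835.9 in the control, with 1, 2 and 1 of 10 fibroblast genes above the floor on every array of the knockdowns, against 0 in the control, and 1, 1 and 2 of 8 blood cell genes, against 2. PDGFRA, FAP, LUM, THY1 and CD3E lay above the floor on no array, but COL3A1 averaged log2 5.49, 5.55 and 7.06 in the knockdowns, against 4.33 in the control, PDGFRB 6.18 in the NHERF1 knockdown, against 4.37, and CD14 5.64, 7.07 and 5.52, against 4.96. The part of these markers in the results below was not tested.

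As background, a cell enters mitosis when the kinase CDK1, bound to cyclin B and freed of its inhibitory phosphates by CDC25 phosphatases, becomes active. Aurora and Polo kinases then drive spindle assembly, kinetochores attach chromosomes to microtubules, and the spindle checkpoint holds back the anaphase-promoting complex (APC/C) until all are attached. Securin and cyclin B are then destroyed, sister chromatids part and the cell cleaves. Most of these genes are transcribed in G2 and M by way of the MuvB complex, which B-MYB and FOXM1 join. That complex binds the cell cycle genes homology region (CHR) close to the start of many such genes, where NF-Y sits on CCAAT boxes nearby. RNA of these genes therefore follows how many cells of a culture are in G2 and M, and in bulk RNA a larger share of such cells and more RNA per cell cannot be told apart.

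Promoters of 6 members are shown because they carry at least the CHR and belong to genes that stand at both ends of the results. HMMR, ANLN and CDC20 were higher in every knockdown. CCNB2 was higher in the PMCA2 and NHERF1 knockdowns and lower in the HER2 knockdown. KIF14 fell in every knockdown, and PRC1 fell in the HER2 knockdown alone. Each promoter runs 5′ to 3′ along the gene's strand over 300 bases, 250 before and 50 from the annotated start, from RefSeq on GRCh38.p14. Capitals mark TTTGAA, the CHR, and CCAAT, the NF-Y motif, on either strand, so TTCAAA and ATTGG mark matches on the other strand. Neighbouring matches can overlap, as CCAAT and ATTGG do in HMMR.
HMMR: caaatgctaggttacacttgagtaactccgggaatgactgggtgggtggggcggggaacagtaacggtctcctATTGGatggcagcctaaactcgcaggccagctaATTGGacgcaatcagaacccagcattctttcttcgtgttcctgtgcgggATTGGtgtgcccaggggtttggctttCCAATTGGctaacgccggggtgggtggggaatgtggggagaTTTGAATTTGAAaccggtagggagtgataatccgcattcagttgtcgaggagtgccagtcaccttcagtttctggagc
ANLN: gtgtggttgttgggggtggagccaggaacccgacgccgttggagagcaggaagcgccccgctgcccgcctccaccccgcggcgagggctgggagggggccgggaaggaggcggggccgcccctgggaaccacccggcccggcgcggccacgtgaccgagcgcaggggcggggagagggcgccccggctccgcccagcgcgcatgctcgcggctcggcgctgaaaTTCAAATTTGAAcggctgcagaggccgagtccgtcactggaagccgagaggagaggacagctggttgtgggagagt
CDC20: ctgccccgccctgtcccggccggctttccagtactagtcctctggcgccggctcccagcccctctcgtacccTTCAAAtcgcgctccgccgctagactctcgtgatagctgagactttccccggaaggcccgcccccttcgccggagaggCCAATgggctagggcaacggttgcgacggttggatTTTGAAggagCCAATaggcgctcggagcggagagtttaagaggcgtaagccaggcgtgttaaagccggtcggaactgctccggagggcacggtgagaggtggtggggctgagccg
CCNB2: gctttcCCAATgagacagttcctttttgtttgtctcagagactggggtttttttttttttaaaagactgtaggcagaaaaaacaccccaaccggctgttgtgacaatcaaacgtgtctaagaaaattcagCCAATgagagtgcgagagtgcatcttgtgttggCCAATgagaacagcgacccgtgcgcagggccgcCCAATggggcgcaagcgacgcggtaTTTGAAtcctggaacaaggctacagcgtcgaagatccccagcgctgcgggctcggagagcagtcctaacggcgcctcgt
KIF14: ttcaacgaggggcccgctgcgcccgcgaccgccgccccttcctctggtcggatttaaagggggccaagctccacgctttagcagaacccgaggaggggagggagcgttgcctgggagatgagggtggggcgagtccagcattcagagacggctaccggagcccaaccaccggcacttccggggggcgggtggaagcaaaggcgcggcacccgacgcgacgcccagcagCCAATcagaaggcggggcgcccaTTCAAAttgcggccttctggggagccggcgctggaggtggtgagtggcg
PRC1: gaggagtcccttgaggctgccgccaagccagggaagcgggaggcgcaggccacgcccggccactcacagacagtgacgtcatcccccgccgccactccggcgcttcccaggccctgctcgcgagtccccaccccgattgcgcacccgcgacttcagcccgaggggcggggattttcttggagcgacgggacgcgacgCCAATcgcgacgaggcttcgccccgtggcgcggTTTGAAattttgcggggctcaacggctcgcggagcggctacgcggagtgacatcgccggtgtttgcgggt
They lie at chr5:163460382-163460681 (plus strand), chr7:36389612-36389911 (plus), chr1:43358731-43359030 (plus), chr15:59104896-59105195 (plus), chr1:200620702-200621001 (minus) and chr15:90994486-90994785 (minus). HMMR holds TTTGAA in tandem at 28 and 22 bases before the start, downstream of 5 CCAAT matches. ANLN holds the CHR at 26 and 20 bases before the start and no CCAAT. CCNB2 has 4 CCAAT matches, at 244, 120, 87 and 54 bases, and 1 CHR at 29 bases before the start, while PRC1 has 1 of each, at 53 and 20 bases.

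Of the 50 members, 42 matched a promoter in that table (not AURKA, BIRC5, BUB3, FOXM1, RACGAP1, TPX2, TTK or UBE2C). TTTGAA was found on either strand in 71.4% of these 42, against 10.2% of the 9906 matched promoters of genes tested and 15.4% of all 27305 promoters of the table. CCAAT was found in 69.0%, against 37.1% and 35.7%, and both motifs in 21 of the 42, against 4.25% and 6.08%. The CHR matches clustered near the start: 19 of 37 lay within 60 bases before it and 8 after it. Of 64 CCAAT matches, 22 lay within 60 bases before the start and 33 between 61 and 160 bases before it. CDC25B, CDC25C, KIF2C and CENPE held neither motif. Among the 21 members with both motifs, 17 were higher and 1 lower in the PMCA2 knockdown than in control, 18 and 1 in the NHERF1 and 17 and 3 in the HER2 knockdown. The 20 tested members that lack 1 or both gave 17 and 0, 16 and 0, and 15 and 1. Of all genes tested, 33.9% were higher and 33.1% lower in the PMCA2, 35.7% and 30.9% in the NHERF1 and 35.4% and 31.8% in the HER2 knockdown. A match describes the letters of the window and is not a bound site. Nor does the lack of a match show that a gene has no such site, as 1 annotated start and exact letters were used.

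**Figure D1:**
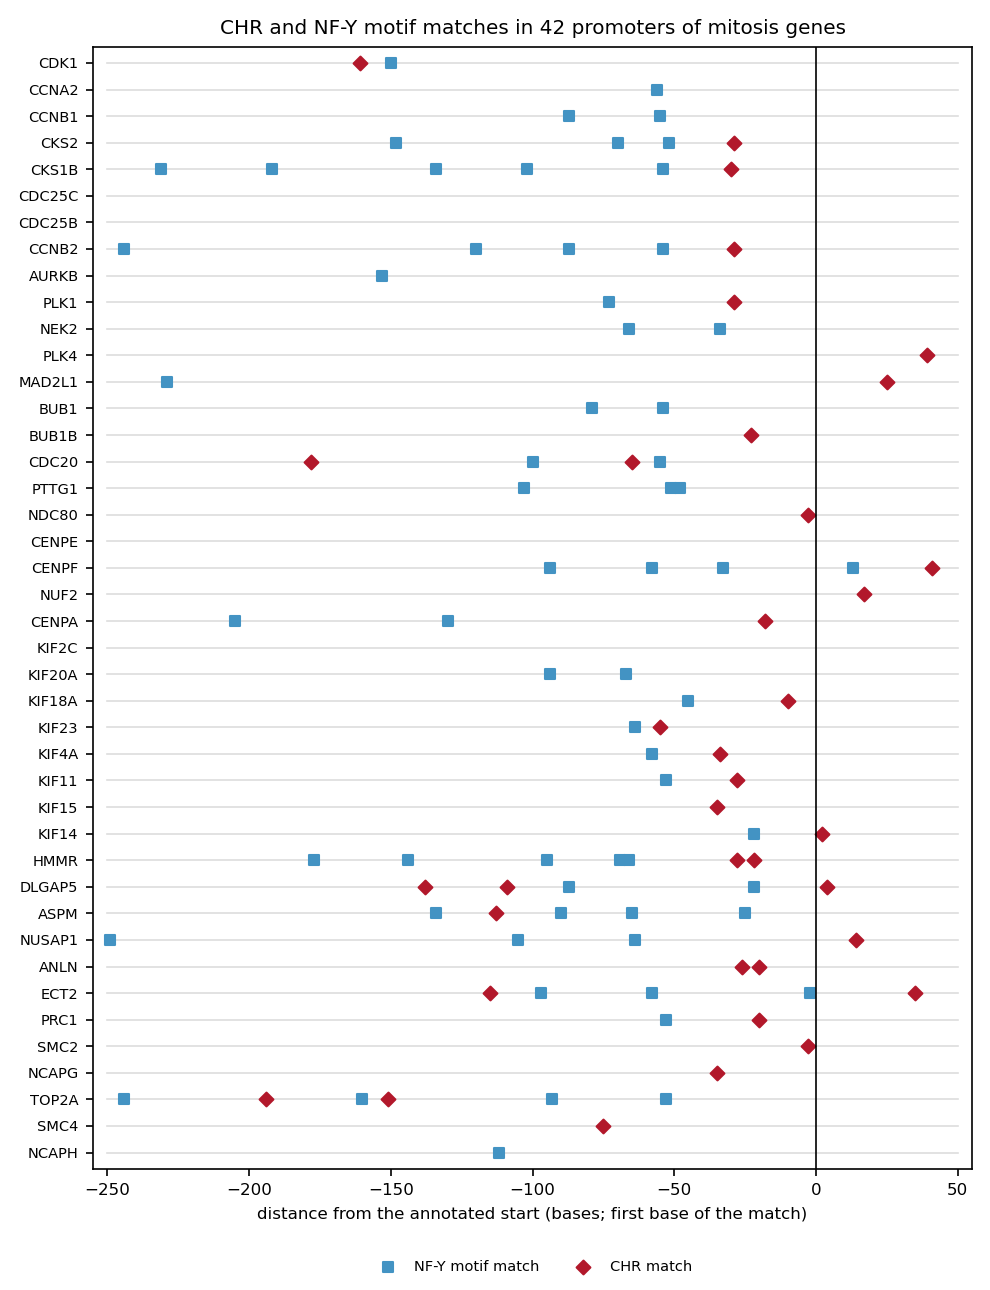
Positions of CHR matches (red diamonds) and NF-Y motif matches (blue squares) on either strand in the 42 matched promoters of mitosis genes, against distance from the annotated start in bases, 1 promoter a line. The CHR matches gather just before the start, with 19 of 37 within 60 bases, and the NF-Y motif matches lie mostly within 160 bases before it, 22 of 64 in the nearest 60 bases and 33 beyond these.

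Most members were higher in every knockdown than in control. In the PMCA2 knockdown 37 of 49 members rose, 3 fell and 9 did not pass limma's test at an adjusted p of 0.05, where 33.9% of all genes tested rose and 33.1% fell. In the NHERF1 knockdown 41 rose, 1 fell and 7 did not pass, against 35.7% and 30.9% of all genes. In the HER2 knockdown 37 rose, 4 fell and 8 did not pass, against 35.4% and 31.8% of all genes. The members' median log2 difference was 0.43 in the PMCA2, 0.41 in the NHERF1 and 0.38 in the HER2 knockdown, beside medians over all genes of 0.0024, 0.0222 and 0.0223. The 3 comparisons share their control arrays. These differences were moderate in size: 11, 15 and 15 members rose at least 1.5-fold, where 13.6%, 13.3% and 13.4% of all genes did, and 1, 1 and 3 rose more than 2-fold, where 6.85%, 6.07% and 6.22% of all genes did. Every PMCA2 knockdown array lay above every control array for 28 members and below for 1 (24.8% and 24.4% of all genes), every NHERF1 knockdown array for 37 and 0 (26.7% and 23.3%) and every HER2 knockdown array for 30 and 3 (25.3% and 23.9%). All 49 tested members lay above the floor on all 24 arrays, so none passed the filter through 1 group alone. Within chip 1, 29 rose and 2 fell in the PMCA2, 36 and 0 in the NHERF1 and 30 and 2 in the HER2 knockdown. Within chip 2 these counts were 33 and 2, 40 and 0, and 36 and 4. Over all 12445 genes, chip 1 gave 3468 and 3451, 3737 and 3203, and 3603 and 3368 in the same order. Chip 2 gave 3751 and 3565, 3921 and 3374, and 3892 and 3505. Each member that passed in a comparison with control had the same sign on both chips.

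**Figure D2:**
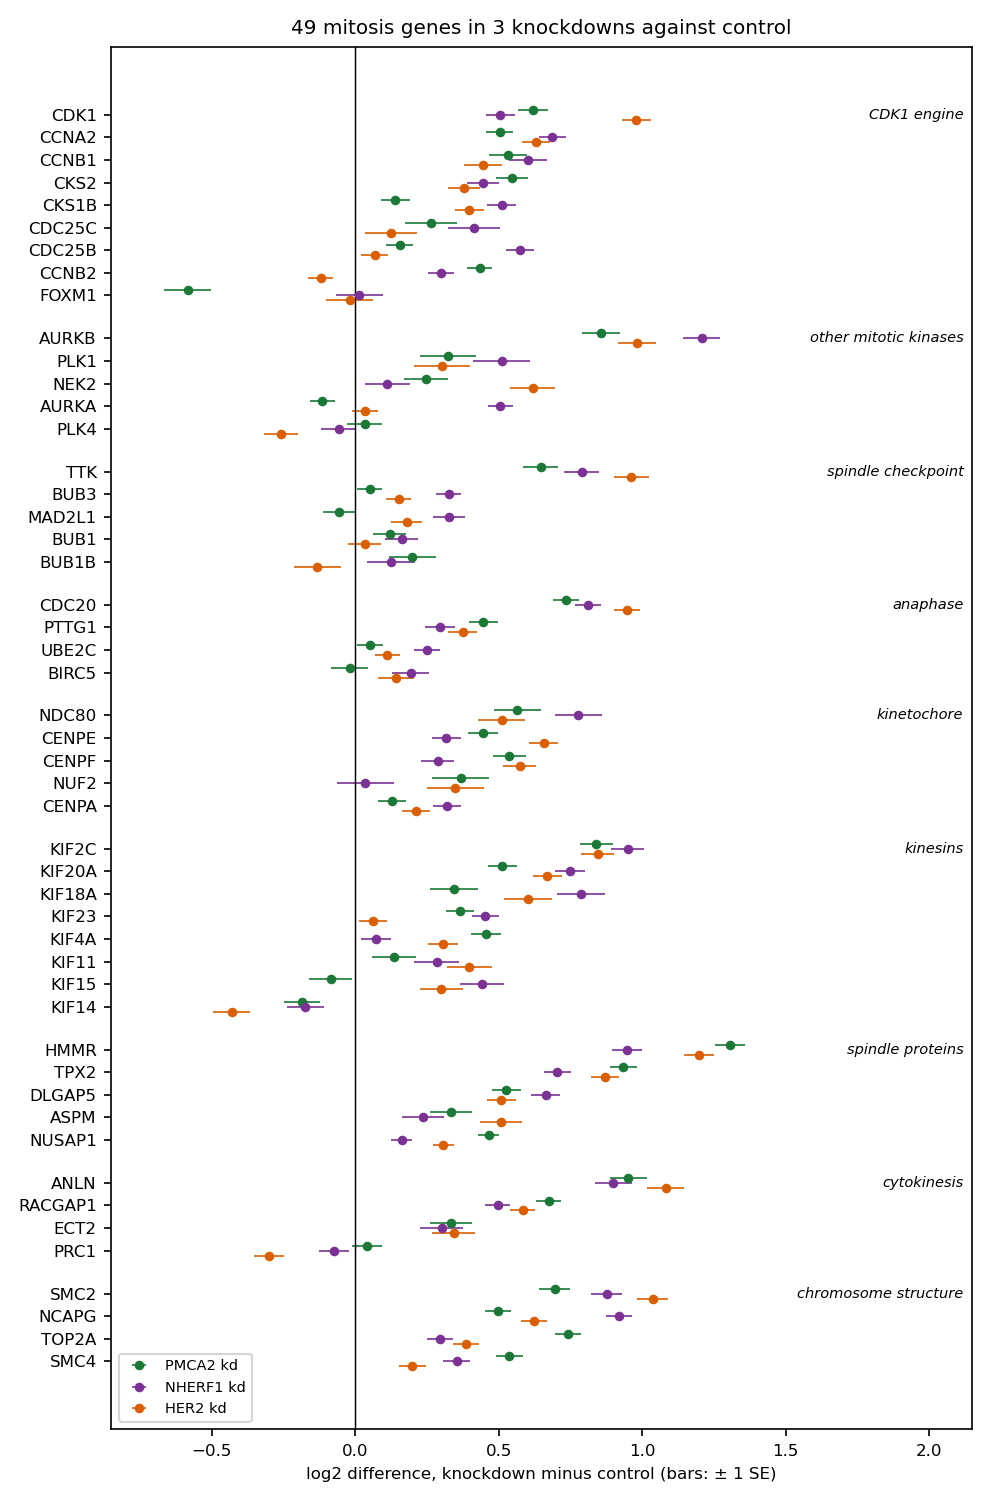
Log2 differences from control of the 49 tested mitosis genes, grouped by role, in the PMCA2 (green), NHERF1 (purple) and HER2 (orange) knockdowns, with bars of 1 SE. Points to the right of 0 are higher in the knockdown; 37, 41 and 37 of the 49 rose, and the fallers FOXM1, AURKA, KIF14, PLK4, PRC1 and CCNB2 have points to the left.

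Counts by role, here and below, stand beside the shares of all genes tested. Of these genes, 33.9% rose and 33.1% fell in the PMCA2, 35.7% and 30.9% in the NHERF1 and 35.4% and 31.8% in the HER2 knockdown. Among the 9 genes of the CDK1 engine, 8 rose and FOXM1 fell in the PMCA2 knockdown, 8 rose in the NHERF1 knockdown, and 5 rose and CCNB2 fell in the HER2 knockdown. CDK1, the kinase that drives entry into mitosis, had log2 intensities of 10.17, 10.38 and 10.44 (lowest, median and highest of 6 arrays) in the PMCA2 knockdown, 10.15, 10.23 and 10.37 in the NHERF1 knockdown and 10.65, 10.70 and 10.80 in the HER2 knockdown, against 9.61, 9.75 and 9.83 in the control. All knockdown arrays lay above all control arrays, and the HER2 knockdown arrays lay above every other array. Its difference from control was 0.62 (SE 0.05, limma adjusted p = 2.24e-11) in the PMCA2, 0.51 (adjusted p = 1.32e-09) in the NHERF1 and 0.98 (adjusted p = 1.2e-15) in the HER2 knockdown, a 1.97-fold level in the last. CCNA2, the cyclin of late S phase and G2, differed from control by log2 0.50, 0.69 and 0.63 in the same order, and CCNB1, the main cyclin partner of CDK1 in mitosis, by 0.53, 0.60 and 0.45. For both genes no knockdown array overlapped the control. The small CDK-binding subunit CKS2 rose by 0.55, 0.44 and 0.38. The phosphatase CDC25B, which activates CDK1, rose by 0.58 in the NHERF1 knockdown (adjusted p = 3.42e-11) and by 0.15 in the PMCA2 knockdown, while its difference of 0.07 in the HER2 knockdown did not pass (adjusted p = 0.223). Its relative CDC25C differed by 0.26, 0.41 and 0.12, of which the last did not pass, but both further CDC25C probes rose in the HER2 knockdown, by 0.26 and 0.45 (limma adjusted p = 0.000501 and 6.32e-06 over all probes). CKS1B, the other CDK-binding subunit, rose by 0.14, 0.51 and 0.40, and its call in the PMCA2 knockdown was lost without control replicate 2 (adjusted p = 0.0559), while a further probe rose there by 0.24 (adjusted p = 1.23e-06).

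FOXM1, a transcription factor of G2 and M genes, went against the other members of this role in 1 knockdown. It read 7.15, 7.42 and 7.69 in the PMCA2 knockdown, 7.91, 8.0 and 8.16 in the NHERF1 and 7.80, 7.94 and 8.23 in the HER2 knockdown, against 7.88, 8.01 and 8.11 in the control. Each PMCA2 knockdown array lay below every array of the other groups, which overlapped one another. It fell by 0.58 on the log2 scale in the PMCA2 knockdown (SE 0.08, limma adjusted p = 4.54e-07), and its differences of 0.01 and -0.02 in the NHERF1 and HER2 knockdowns did not pass. A further FOXM1 probe gave -0.50 (limma adjusted p = 1.7e-07 over all probes), 0.02 and 0.02 in the same order, so both probes gave the fall in the PMCA2 knockdown only. CCNB2, a second B-type cyclin, read 10.07, 10.19 and 10.24 in the PMCA2, 9.97, 10.04 and 10.15 in the NHERF1 and 9.53, 9.63 and 9.71 in the HER2 knockdown, against 9.68, 9.74 and 9.83 in the control. It lay above all control arrays in the first pair of knockdowns and overlapped them in the HER2 knockdown. It rose by 0.43 and 0.30 in the PMCA2 and NHERF1 knockdowns and fell by 0.12 in the HER2 knockdown (limma adjusted p = 0.0171). That fall was -0.05 on chip 1, which did not pass, and -0.20 on chip 2, and it missed the threshold without HER2 knockdown replicate 6 (adjusted p = 0.0512).

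Of the 5 other mitotic kinases, 3 rose in each knockdown, AURKA fell in the PMCA2 knockdown and PLK4 in the HER2 knockdown. AURKB, the kinase of the chromosomal passenger complex that corrects faulty attachments, read 9.05, 9.19 and 9.47 in the PMCA2, 9.39, 9.57 and 9.66 in the NHERF1 and 9.20, 9.31 and 9.52 in the HER2 knockdown, against 8.18, 8.37 and 8.44 in the control. Every knockdown array lay above every control array, and the knockdowns overlapped one another. It rose by 0.86, 1.21 (a 2.31-fold level, limma adjusted p = 3.6e-15) and 0.98 (SE 0.07 each). PLK1, a Polo kinase of entry and cytokinesis, rose by 0.32, 0.51 and 0.30 (SE 0.10 each), and its arrays overlapped the control in the PMCA2 and HER2 knockdowns. In these knockdowns it read 0.10 and 0.21 on chip 1, neither passing, and 0.54 and 0.39 on chip 2. NEK2, a kinase that parts the centrosomes, rose by 0.25 in the PMCA2 and 0.62 in the HER2 knockdown, and its 0.11 in the NHERF1 knockdown did not pass. A further NEK2 probe rose by 0.42, 0.26 and 0.62, so the NHERF1 knockdown passed on it (adjusted p = 5.29e-05).

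AURKA, the kinase of spindle poles, separated the knockdowns. It read 11.27, 11.39 and 11.46 in the PMCA2, 11.86, 11.99 and 12.09 in the NHERF1 and 11.44, 11.51 and 11.60 in the HER2 knockdown, against 11.43, 11.49 and 11.51 in the control. All NHERF1 knockdown arrays stood above all others, and the remaining groups overlapped the control. Its difference was 0.51 in the NHERF1 knockdown (SE 0.04, limma adjusted p = 8.26e-11) and 0.03 in the HER2 knockdown, which did not pass. In the PMCA2 knockdown it fell by 0.11 (adjusted p = 0.0253), with -0.20 on chip 1 and -0.03 on chip 2, where it did not pass, and the call was lost without PMCA2 knockdown replicate 1 or 3 (adjusted p 0.0691 to 0.0722). A further AURKA probe fell there by 0.13 (adjusted p = 0.0186). PLK4, the kinase that starts centriole duplication, read 8.28, 8.44 and 8.56 in the PMCA2, 8.20, 8.32 and 8.62 in the NHERF1 and 8.06, 8.11 and 8.25 in the HER2 knockdown, against 8.32, 8.42 and 8.46 in the control. All HER2 knockdown arrays lay below the control. It fell by 0.26 in the HER2 knockdown (SE 0.06, limma adjusted p = 0.000469), with -0.21 on chip 1, which did not pass alone, and -0.31 on chip 2.

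In the spindle checkpoint, 2 of 5 genes rose in the PMCA2, 4 in the NHERF1 and 3 in the HER2 knockdown, and none fell in these comparisons. In the PMCA2 knockdown the share that rose, 40%, was near the 33.9% of all genes. The median absolute log2 difference of this role there was 0.12, against 0.28 over all genes. TTK, the kinase that starts checkpoint signalling at kinetochores, read 8.82, 8.92 and 9.06 in the PMCA2, 8.95, 9.07 and 9.18 in the NHERF1 and 9.10, 9.26 and 9.35 in the HER2 knockdown, against 8.12, 8.28 and 8.45 in the control. The groups did not overlap the control. It rose by 0.65, 0.79 and 0.96 (SE 0.06 each, limma adjusted p = 3e-10, 5.3e-12 and 7.49e-14). The other checkpoint genes moved less. MAD2L1, which binds and holds CDC20, differed by -0.06 (not passing), 0.33 and 0.18, and BUB3, the adaptor of the BUB kinases, by 0.05 (not passing), 0.33 and 0.15. A further MAD2L1 probe gave -0.03 in the NHERF1 and 0.21 in the HER2 knockdown, neither passing. The rise of MAD2L1 in the HER2 knockdown was 0.28 on chip 1 and 0.08 on chip 2, where it did not pass. Of the further BUB3 probes, 1 rose by 0.44 (adjusted p = 8.84e-05), 0.56 and 0.73 in the PMCA2, NHERF1 and HER2 knockdown, and another gave -0.05, 0.02 and -0.05, none passing. BUB1, a checkpoint kinase, rose by 0.16 in the NHERF1 knockdown and read 0.12 and 0.03 in the PMCA2 and HER2 knockdowns, not passing. BUB1B, the checkpoint protein BubR1, rose by 0.20 in the PMCA2 knockdown (limma adjusted p = 0.0352), a call lost without control replicate 3, 5 or 6 or PMCA2 knockdown replicate 2 or 3 (adjusted p 0.0688 to 0.102).

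Of the 4 genes of anaphase and survivin, 2 rose in the PMCA2, all 4 in the NHERF1 and 3 in the HER2 knockdown. CDC20, the activator of the APC/C and the target of the checkpoint, read 11.93, 12.02 and 12.15 in the PMCA2, 12.07, 12.09 and 12.24 in the NHERF1 and 12.15, 12.26 and 12.35 in the HER2 knockdown, against 11.27, 11.31 and 11.36 in the control. All control arrays lay below all knockdown arrays. It rose by 0.74, 0.81 and 0.95 (SE 0.05 each, limma adjusted p = 4.4e-14, 5.35e-15 and 1.71e-16). PTTG1, securin, which restrains separase until anaphase, rose by 0.45, 0.30 and 0.37. UBE2C, the ubiquitin-conjugating enzyme that works with the APC/C, rose by 0.25 in the NHERF1 and 0.11 in the HER2 knockdown. Its call in the HER2 knockdown did not hold for all probes or arrays. A further probe fell by 0.14 there (adjusted p = 0.0378), and the call was lost without control replicate 2 or HER2 knockdown replicate 3 or 4 (adjusted p 0.0589 to 0.0978). BIRC5, survivin, a subunit of the passenger complex, rose by 0.19 in the NHERF1 knockdown and read -0.02 and 0.14 in the PMCA2 and HER2 knockdowns, not passing in either. A further BIRC5 probe gave 0.03, 0.39 and 0.41, and the last passed (adjusted p = 1.14e-06).

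All 5 kinetochore genes rose in the PMCA2 and HER2 knockdowns and 4 rose in the NHERF1 knockdown. NDC80, a subunit of the complex that grips microtubule ends, read 7.19, 7.26 and 7.38 in the PMCA2, 7.35, 7.48 and 7.59 in the NHERF1 and 6.93, 7.25 and 7.36 in the HER2 knockdown, against 6.45, 6.69 and 7.08 in the control. The range of the HER2 knockdown overlapped that of the control, and the other knockdowns lay above all control arrays. It rose by 0.56, 0.78 and 0.51 (SE 0.08 each, limma adjusted p = 8.02e-07, 2.88e-09 and 3.67e-06). Its partner NUF2 rose by 0.37 and 0.35 in the PMCA2 and HER2 knockdowns and read 0.04 in the NHERF1 knockdown, not passing. The rises in the PMCA2 and HER2 knockdowns were 0.25 and 0.12 on chip 1, neither passing, and 0.48 and 0.58 on chip 2. A further NUF2 probe gave 0.02 in the PMCA2, -0.15 in the NHERF1 and -0.05 in the HER2 knockdown, none passing. The kinetochore motor CENPE rose by 0.45, 0.32 and 0.66, and the outer kinetochore protein CENPF by 0.54, 0.29 and 0.57. CENPA, the histone H3 variant of centromeres, rose by 0.32 in the NHERF1 and 0.21 in the HER2 knockdown. Its rise of 0.13 in the PMCA2 knockdown was lost without control replicate 2 or PMCA2 knockdown replicate 6 (adjusted p 0.0544 to 0.066).

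Among 8 kinesins, motors that move along or shorten microtubules, 5 rose in the PMCA2 knockdown and 6 in each of the others, and KIF14 fell in all of them. KIF2C, which depolymerises microtubules at centromeres, read 8.53, 8.64 and 8.77 in the PMCA2, 8.62, 8.73 and 8.91 in the NHERF1 and 8.53, 8.66 and 8.78 in the HER2 knockdown, against 7.66, 7.81 and 7.93 in the control. The knockdowns overlapped one another and lay wholly above the control. It rose by 0.84, 0.95 and 0.84 (SE 0.06 each, limma adjusted p = 5.06e-13, 3.66e-14 and 4.67e-13). KIF20A, a motor of the cleaving midzone, rose by 0.51, 0.75 and 0.67, and KIF18A, which steadies chromosomes at the spindle equator, by 0.34, 0.79 and 0.60. The chromosome-bound motor KIF4A rose by 0.46 in the PMCA2 and 0.31 in the HER2 knockdown, and its 0.07 in the NHERF1 knockdown did not pass. KIF11, which pushes spindle poles apart, differed by 0.14 (not passing), 0.28 and 0.40, KIF15 by -0.09 (not passing), 0.44 and 0.30, and KIF23 by 0.37, 0.45 and 0.06 (not passing). On further probes, KIF11 rose by 0.25 in the PMCA2 knockdown (adjusted p = 0.0168) and KIF23 by 0.24 in the HER2 knockdown (adjusted p = 0.022).

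KIF14, a kinesin needed to finish cytokinesis, read 7.36, 7.60 and 7.75 in the PMCA2, 7.51, 7.55 and 7.76 in the NHERF1 and 7.16, 7.40 and 7.45 in the HER2 knockdown, against 7.67, 7.77 and 7.85 in the control. All HER2 knockdown arrays lay below the control, and some arrays of the other knockdowns reached into the control's range. It fell by 0.43 in the HER2 knockdown (SE 0.06, limma adjusted p = 9.54e-07), with -0.40 on chip 1 and -0.46 on chip 2. Its falls by 0.19 in the PMCA2 (adjusted p = 0.0114) and by 0.17 in the NHERF1 knockdown (adjusted p = 0.0177) were smaller. On single chips these were -0.15 and -0.22 in the PMCA2 knockdown, the first not passing, and -0.15 and -0.19 in the NHERF1 knockdown, neither passing.

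All 5 spindle proteins rose in each knockdown. HMMR, a hyaluronan receptor that also binds spindle microtubules, read 9.48, 9.63 and 9.77 in the PMCA2, 9.12, 9.27 and 9.38 in the NHERF1 and 9.42, 9.53 and 9.57 in the HER2 knockdown, against 8.25, 8.33 and 8.38 in the control. Its lowest knockdown array lay well above its highest control array. It rose by 1.31 (a 2.47-fold level, SE 0.05, limma adjusted p = 3.09e-18), 0.95 and 1.20, the largest difference among members in the PMCA2 and HER2 knockdowns. TPX2, which activates AURKA on the spindle, rose by 0.94, 0.70 and 0.87, the PMCA2 and HER2 knockdowns included, in which AURKA itself did not rise. DLGAP5, which binds microtubules near chromosomes, rose by 0.53, 0.66 and 0.51. The spindle pole protein ASPM and the microtubule bundler NUSAP1 rose by 0.16 to 0.51 over the 3 comparisons, and a further NUSAP1 probe gave 0.08 in the NHERF1 knockdown, not passing.

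**Figure D3:**
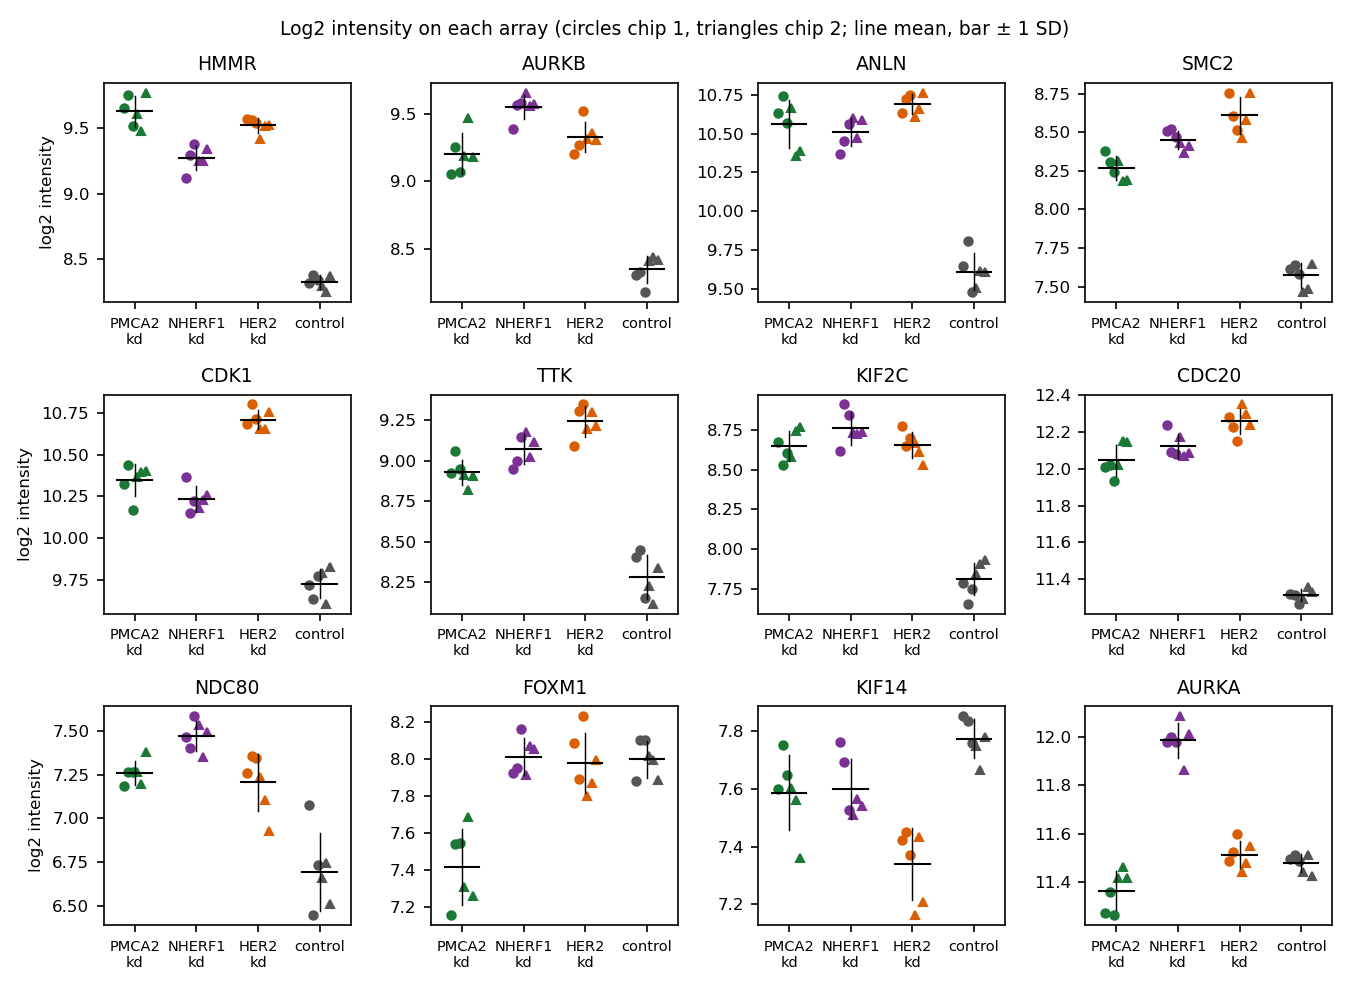
Log2 intensity of 12 mitosis genes on each of the 24 arrays, in the PMCA2, NHERF1 and HER2 knockdowns and the control from left to right, with circles for chip 1, triangles for chip 2, a line at the group mean and a bar of 1 SD. HMMR, AURKB, ANLN, SMC2, CDK1, TTK, KIF2C and CDC20 have every knockdown array above the control, FOXM1 is low only in the PMCA2 knockdown, and AURKA is high only in the NHERF1 knockdown.

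Of the 4 cytokinesis genes, 3 rose in each knockdown, and PRC1 fell in the HER2 knockdown. ANLN, the scaffold of the contractile ring, read 10.36, 10.60 and 10.74 in the PMCA2, 10.37, 10.52 and 10.60 in the NHERF1 and 10.61, 10.69 and 10.76 in the HER2 knockdown, against 9.48, 9.61 and 9.81 in the control. No array of a knockdown overlapped the control. It rose by 0.95, 0.90 and 1.08 (SE 0.06 each, limma adjusted p = 4.23e-13, 1.42e-12 and 2.69e-14). RACGAP1 and ECT2, which together switch on RhoA at the cleavage furrow, rose by 0.68, 0.50 and 0.58, and by 0.33, 0.30 and 0.34. PRC1, which bundles the microtubules of the midzone, read 10.20, 10.44 and 10.52 in the PMCA2, 10.19, 10.28 and 10.37 in the NHERF1 and 9.98, 10.07 and 10.14 in the HER2 knockdown, against 10.33, 10.34 and 10.41 in the control. The HER2 knockdown arrays lay below those of every other group. It fell by 0.30 there (SE 0.05, limma adjusted p = 1.03e-05) and read 0.04 and -0.07 in the PMCA2 and NHERF1 knockdowns, not passing.

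All 4 tested genes of chromosome structure rose in each knockdown. SMC2, the core ATPase of condensin, read 8.19, 8.27 and 8.37 in the PMCA2, 8.36, 8.45 and 8.52 in the NHERF1 and 8.46, 8.59 and 8.75 in the HER2 knockdown, against 7.46, 7.60 and 7.65 in the control. All knockdown arrays lay above the control. It rose by 0.70, 0.88 and 1.04 (SE 0.05 each, limma adjusted p = 5.68e-12, 4.07e-14 and 1.02e-15). Its probes disagreed: a further one gave 0.38, 0.83 and 0.85, and another -0.45, -0.02 and -0.24 in the same order, where the fall in the PMCA2 knockdown passed (adjusted p = 0.00162). TOP2A, the topoisomerase that untangles sister DNA, rose by 0.74, 0.30 and 0.39. The condensin subunits NCAPG and SMC4 rose by 0.50, 0.92 and 0.62, and by 0.54, 0.35 and 0.20. The further SMC4 probes gave 0.21 and 0.22 in the PMCA2, 0.30 and 0.28 in the NHERF1 and 0.26 and -0.22 in the HER2 knockdown, passing in the NHERF1 knockdown alone. NCAPH, the kleisin of that complex, was not tested, as its probe lay above the floor on 1 array of the PMCA2, 2 of the NHERF1 and 1 of the HER2 knockdown and on 1 control array.

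Further genes of mitosis and the cell cycle, outside the 50, were counted in the same way. Their counts stand beside shares of all genes of 33.9% higher and 33.1% lower in the PMCA2, 35.7% and 30.9% in the NHERF1 and 35.4% and 31.8% in the HER2 knockdown. Of 19 tested genes of mitotic entry and G2/M, 13 rose and 4 fell in the PMCA2, 13 and 5 in the NHERF1 and 15 and 3 in the HER2 knockdown. DEPDC1 rose by 1.45, 1.44 and 1.85, and MASTL, the Greatwall kinase that shuts off a phosphatase opposing CDK1, by 1.01, 1.06 and 1.36, both at least 2-fold in every comparison (limma adjusted p at most 3.89e-14). Of 14 cohesin genes, 7 rose and 2 fell, 10 and 0, and 9 and 1 in the same order, with the cohesin ATPase SMC3 at 0.68, 0.98 and 0.66. Of 4 other condensin subunits, 2 rose and 1 fell, 3 and 0, and 3 and 1, with NCAPD2 at 0.42, 0.80 and 0.83. The 33 other centromere and kinetochore genes gave 13 up and 8 down, 18 and 3, and 15 and 5. SPDL1, a dynein adaptor at kinetochores, rose by 1.02, 0.70 and 0.73, while SKA2, a subunit of the SKA complex, fell by 0.96 in the PMCA2 knockdown.

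The 22 other spindle motors and microtubule proteins gave 8 up and 7 down in the PMCA2, 14 and 4 in the NHERF1 and 9 and 5 in the HER2 knockdown, the first near the shares of all genes (33.9% higher and 33.1% lower), with the microtubule plus-end protein MAPRE1 at 0.87 in the PMCA2 and 0.61 in the NHERF1 knockdown. Other lists shared the members' direction only in part or not at all. Of 15 APC/C subunits and regulators, 5 rose and 8 fell in the PMCA2, 7 and 5 in the NHERF1 and 3 and 8 in the HER2 knockdown. FBXO5, an inhibitor of the APC/C, fell by 0.58 in the PMCA2 knockdown (limma adjusted p = 2.47e-10), and the subunit CDC26 fell by 0.56 in the HER2 knockdown. Of 6 late cytokinesis genes, 1 rose and 3 fell, 1 and 3, and 2 and 3, and RHOA, the GTPase of the contractile ring, fell in each comparison (log2 -0.64, -0.30 and -0.36). Of 11 centriole genes, 4 rose and 2 fell, 6 and 0, and 6 and 4 (median log2 0.09, 0.13 and 0.19). The share that rose in the PMCA2 knockdown and the share that fell in the HER2 knockdown were near those of all genes (33.9% and 31.8%). Of the 6 genes of the MuvB core and B-MYB, 1 rose and 2 fell, 1 and 1, and 0 and 2; LIN54, which contacts the CHR, was lower in each (log2 -0.31, -0.35 and -0.45), and B-MYB (gene MYBL2) rose by 0.60 in the NHERF1 knockdown.

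Of 31 genes of S phase and DNA replication, 11 rose and 8 fell in the PMCA2 knockdown, near the shares of all genes (33.9% and 33.1%), 24 and 4 in the NHERF1 and 20 and 4 in the HER2 knockdown. In the direct comparison of the PMCA2 with the HER2 knockdown 3 of the 31 were higher and 21 lower (26.5% and 28.9% of all genes), with a median log2 of -0.29. With the NHERF1 knockdown as the comparator 3 were higher and 22 lower (27.3% and 30%), with a median of -0.33. Of the 49 mitosis genes, 11 were higher and 18 lower in the first of these comparisons and 12 and 19 in the second. MCM10, needed for replication to start, rose by 0.77 in the PMCA2 and 1.44 in the HER2 knockdown. TK1, thymidine kinase, fell in each knockdown (log2 -1.38, -1.45 and -1.26, limma adjusted p at most 4.6e-18).

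**Figure D4:**
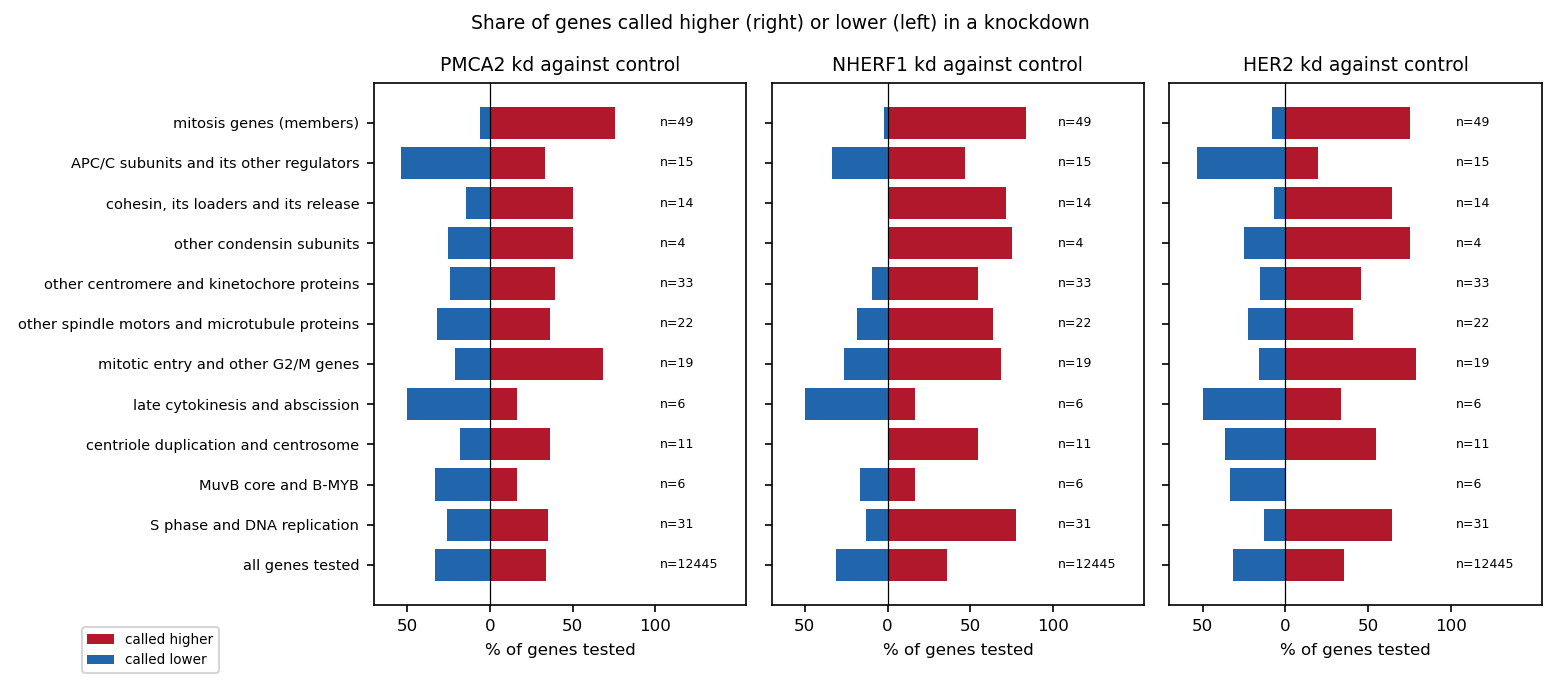
Share of tested genes called higher (red, right) or lower (blue, left) than control in each knockdown, for the mitosis genes, 10 further lists of mitosis and cell cycle genes and all 12445 genes tested, with the number tested at the right. The mitosis genes have among the highest red shares, 75.5%, 83.7% and 75.5%, beside 33.9%, 35.7% and 35.4% of all genes. The late cytokinesis list has more blue than red in every knockdown, and the APC/C and MuvB lists do in the PMCA2 and HER2 knockdowns.

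Between the knockdowns the mitosis genes differed in both directions and, by median size, no more than genes in general. Their median absolute log2 difference was 0.1565 for PMCA2 against HER2, 0.1738 for NHERF1 against HER2 and 0.1833 for PMCA2 against NHERF1. Over all genes it was 0.1937, 0.1762 and 0.2032. In the PMCA2 against the HER2 knockdown 11 of 49 were higher and 18 lower, where 26.5% of all genes were higher and 28.9% lower, with a median log2 of -0.009 (all genes -0.0144). CCNB2 (log2 0.56) and TOP2A (0.36) were higher in the PMCA2 knockdown, and FOXM1 (-0.56), KIF15 (-0.39), NEK2 (-0.37) and CDK1 (-0.36) were lower (limma adjusted p at most 0.000216). For each of these 6 no array of the PMCA2 knockdown overlapped the HER2 knockdown, and all arrays lay apart in this way for 7 members above and 8 below (16.7% and 17.5% of all genes). KIF15, a kinesin that helps to keep the spindle bipolar, read 5.80, 6.08 and 6.33 in the PMCA2 knockdown, against 6.34, 6.46 and 6.63 in the HER2 knockdown. Within chip 1 the counts were 7 higher and 12 lower, and within chip 2 they were 10 and 9. Over all 12445 genes they were 2458 and 2645 on chip 1 and 2645 and 2892 on chip 2.

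In the NHERF1 against the HER2 knockdown 17 of 49 were higher and 14 lower, where 26.8% of all genes were higher and 25.4% lower, with a median log2 of 0.11 (all genes 0.0065). CDC25B (0.51), AURKA (0.47), CCNB2 (0.42) and KIF23 (0.39), the motor of the central spindle complex with RACGAP1, were higher in the NHERF1 knockdown. NEK2 (-0.51) and CDK1 (-0.47) were lower (limma adjusted p at most 4.12e-06 for these 6). CDC25B read 11.07, 11.11 and 11.15 in the NHERF1 knockdown, against 10.44, 10.61 and 10.74 in the HER2 knockdown, and NEK2 read 8.66, 8.85 and 9.10 in the NHERF1 knockdown, against 9.24, 9.36 and 9.52 in the HER2 knockdown. None of these 6 overlapped between the groups, and all arrays lay apart for 9 members above and 8 below (16.7% and 15.7% of all genes). By role, 4 of 5 spindle proteins were lower in the NHERF1 knockdown and 1 higher, and 3 of 5 kinetochore genes were lower and 1 higher. Other roles leaned the other way: 3 of 5 other mitotic kinases, 3 of 5 checkpoint genes and 3 of 9 CDK1 engine genes were higher. In each of these 1 was lower, and in the remaining roles 1 or 2 were higher and 1 lower. Within chip 1 the counts were 9 and 7, and within chip 2 they were 12 and 9. Over all 12445 genes they were 2380 and 2247 on chip 1 and 2519 and 2574 on chip 2.

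In the PMCA2 against the NHERF1 knockdown 12 of 49 were higher and 19 lower, where 27.3% of all genes were higher and 30% lower, with a median log2 of -0.08 (all genes -0.0135). AURKA (-0.62), FOXM1 (-0.60), KIF15 (-0.53), KIF18A (-0.44) and NCAPG (-0.42) were lower in the PMCA2 knockdown, and TOP2A (0.44) was higher (limma adjusted p at most 5.24e-05). TOP2A read 12.60, 12.68 and 12.79 in the PMCA2 knockdown, against 12.14, 12.25 and 12.38 in the NHERF1 knockdown, with no overlap. AURKA and FOXM1 were the only members that differed by at least 1.5-fold between any pair of knockdowns (6.36% of all genes were lower by that much in this comparison), AURKA being 1.54-fold and FOXM1 1.51-fold lower in the PMCA2 than in the NHERF1 knockdown. All arrays lay apart for 7 members above and 14 below (17.8% and 20.3% of all genes). Within chip 1 the counts were 4 and 12, and within chip 2 they were 11 and 14. Over all 12445 genes they were 2520 and 2904 on chip 1 and 2793 and 2986 on chip 2. Each pair of these comparisons shares the arrays of a knockdown.

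**Figure D5:**
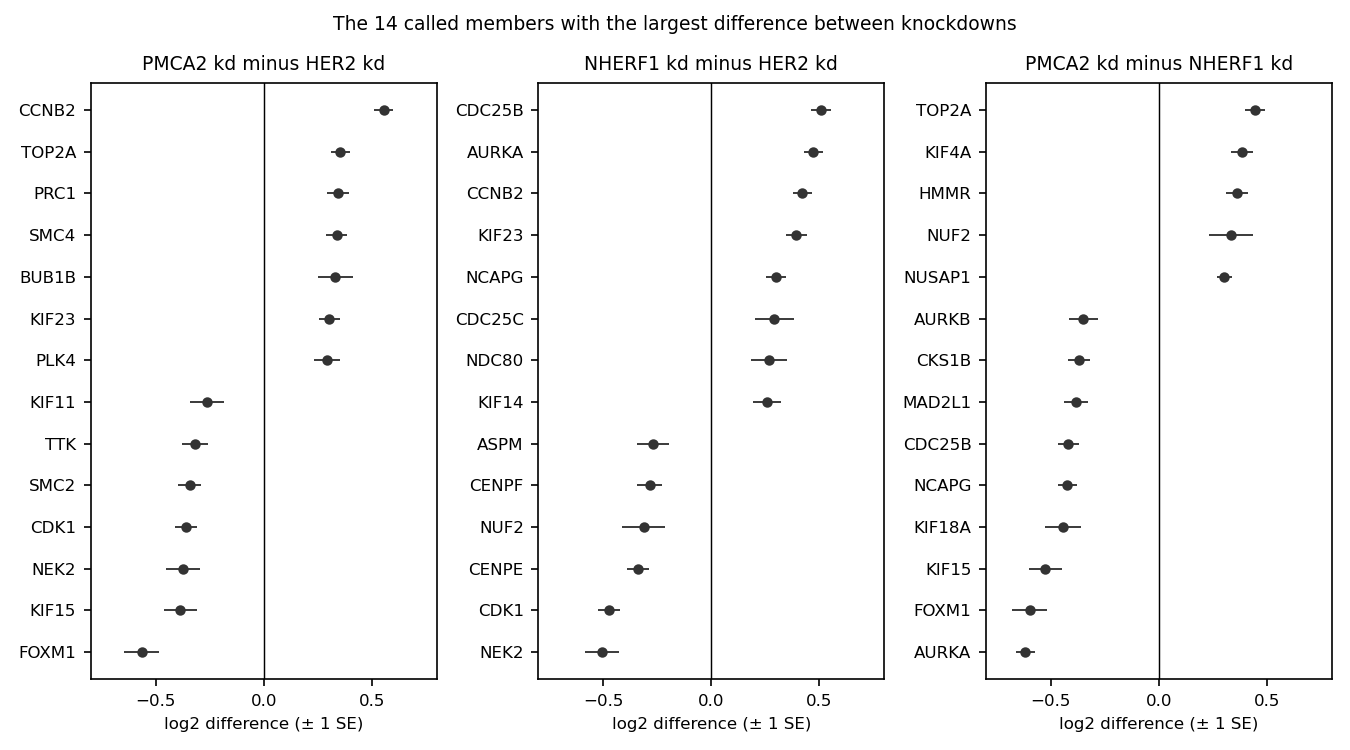
Log2 differences with bars of 1 SE for the 14 mitosis genes with the largest called difference in each comparison between knockdowns, ordered from higher to lower. FOXM1 is lowest in the PMCA2 knockdown against the HER2 knockdown (-0.56), AURKA is lowest against the NHERF1 knockdown (-0.62), and differences run both ways in every panel.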

How the data were processed

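RNA of SKBR3 cells, in 4 labelled groups of 6, was hybridised to 24 Illumina expression arrays. The authors deposited linear intensity values, already normalized between arrays as the values show. Per the labels, RNA was purified with TRIzol and RNeasy and labelled with biotin by MessageAmp (scanner software and normalization: not given in the sources used here). A second deposited table, of signals before normalization, has 24 per-sample columns whose names match no label, and it was not analysed here.

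The deposited intensity values were corrected by normexp with 437 olfactory receptor probes as negative controls (offset 16), quantile normalized and taken to log2. A probe was kept if it exceeded their 95th percentile (106, the floor) on at least 6 arrays. This left 22586 of 47323 probes and 12445 genes, each by its probe with the highest mean. Of the 47323 probes, 30113 had 1 gene symbol, 8 several and 17202 none.

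All pairs of groups, 6 comparisons in all, were tested over all genes and all arrays with limma 3.58.1 (R 4.3.3), moderated by eBayes and adjusted by Benjamini-Hochberg within each comparison, and called at an adjusted p under 0.05. Differences are on the log2 scale of corrected intensities, and levels of different probes were not compared. The number of arrays limits the precision: the median SE over all genes and comparisons was 0.069. The procedure was tested on simulated data. Alternatives changed the background correction, normalization, filter, probe choice, variance model, arrays in the fit, chip and replicate number.

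The text names, per role and comparison with control, the 3 called members with the largest difference, every called member that fell and the untested one; between knockdowns, the 6 with the largest called difference; and up to 3 genes of each other list by adjusted p. Other names were chosen after their values were seen. Members and lists were chosen with earlier results of these data known. Promoters were matched by symbol and searched with a script, and figures were drawn with matplotlib 3.10.9.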

Additional observations from a re-analysis of the deposited data

Results flagged for a closer look

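Single arrays stood apart from the other 5 of their group, by a gap that filled most of the group's range (Dixon's test at 95%), in 16 of 200 combinations of member and group (8%), where chance gives about 1 in 20. They involved 15 members, and 13 of the 16 lay on chip 1 and 3 on chip 2. All values are log2 intensities.

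In the PMCA2 knockdown, PLK1 was low on replicate 3 (6.08, others 6.56 to 6.77), KIF20A on replicate 1 (9.98, others 10.14 to 10.23) and PTTG1 on replicate 1 (11.11, others 11.28 to 11.35), while ECT2 was high on replicate 2 (9.66, others 9.26 to 9.40). In the NHERF1 knockdown, AURKB was low on replicate 1 (9.39, others 9.56 to 9.66), KIF23 on replicate 1 (8.75, others 8.86 to 8.93), TPX2 on replicate 2 (9.40, others 9.51 to 9.53) and SMC4 on replicate 5 (10.45, others 10.57 to 10.62), while DLGAP5 was high on replicate 3 (9.40, others 9.13 to 9.21).

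In the HER2 knockdown, CCNA2 was high on replicate 3 (10.28, others 10.14 to 10.16), as was MAD2L1 (10.12, others 9.71 to 9.86). HMMR was low on replicate 4 (9.42, others 9.52 to 9.57) and NUF2 on replicate 1 (6.37, others 6.81 to 6.97). In the control, UBE2C was low on replicate 2 (11.52, others 11.67 to 11.74), and without it the rise of UBE2C in the HER2 knockdown did not pass. NCAPH, whose probe was too dim to be tested, was high on PMCA2 knockdown replicate 3 (4.65, others 4.25 to 4.30) and HER2 knockdown replicate 5 (4.68, others 4.30 to 4.43).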

How the results depend on the processing

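Counts of mitosis genes called kept within 1.5 times of those reported under every alternative other than a single chip. On chip 1 alone, 0 fell in the NHERF1 and 2 in the HER2 knockdown, 7 were higher in the PMCA2 than the HER2, 9 higher and 7 lower in the NHERF1 than the HER2, and 4 higher and 12 lower in the PMCA2 than the NHERF1 knockdown. On chip 2 alone, 0 fell in the NHERF1 knockdown, and 9 were lower than the HER2 knockdown in the PMCA2 and 9 in the NHERF1 knockdown; a single chip leaves fewer arrays. With no background correction the median log2 difference from control was 0.34, 0.30 and 0.31 for PMCA2, NHERF1 and HER2 knockdown, with normexp without negative controls 0.32 in the NHERF1 knockdown, and with the mean of all probes 0.35 in the PMCA2 knockdown. That mean turned UBE2C in the HER2 knockdown against control to -0.0132, and MAD2L1 to -0.044 and SMC2 to 0.0134 in the NHERF1 against the HER2 knockdown; the cause was not tested beyond the probes' own values. Leaving out 1 array at a time gave 35 to 38 higher, 2 to 3 lower and medians of 0.42 to 0.44 in the PMCA2, 41 to 41, 1 to 1 and 0.37 to 0.44 in the NHERF1, and 36 to 38, 3 to 4 and 0.36 to 0.39 in the HER2 knockdown against control. Between knockdowns these were 10 to 13, 16 to 18 and -0.04 to 0.002 (PMCA2 against HER2), 16 to 19, 14 to 15 and 0.08 to 0.12 (NHERF1 against HER2), and 11 to 15, 16 to 20 and -0.10 to -0.06 (PMCA2 against NHERF1). With the replicate number as a block 37 rose and 3 fell in the PMCA2, 41 and 1 in the NHERF1 and 38 and 4 in the HER2 knockdown. Of 36 pairs of arrays with 1 number, 4 had deviations correlated above 0.1 (r -0.0581 to 0.112), so the numbers were not taken as pairs. The best match had the same number for 25 of 72, and for 16 of 72 with chip means removed, where chance without regard to chip gives 12. Arrays of 1 number lie on 1 chip, so a chip effect alone can raise the first count. Signal over background limits NCAPH, and group and chip position cannot be told apart.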

Other observations

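Some cell cycle genes outside the 50 mitosis genes differed between the knockdowns. CDC25A, the CDC25 phosphatase of S phase entry, was lower in the PMCA2 than in the HER2 knockdown (log2 -0.88) and than in the NHERF1 knockdown (-1.01, limma adjusted p = 2.3e-14). FBXO5, the APC/C inhibitor, was lower in the PMCA2 than in the NHERF1 knockdown (-0.94) and higher in the NHERF1 knockdown than in that of HER2 (0.65). MYBL2, above the floor on 23 arrays, was lower in the PMCA2 than in the NHERF1 knockdown (-0.78) and higher in the NHERF1 knockdown than in that of HER2 (0.69). BORA, an activator of AURKA and PLK1, was higher than in the HER2 knockdown in both the PMCA2 (0.53) and the NHERF1 knockdown (0.98). PRIM1, a primase subunit, was lower in the PMCA2 knockdown than in the HER2 (-0.92) and NHERF1 knockdowns (-1.07), while RRM2, a subunit of ribonucleotide reductase, was higher in the PMCA2 than in the NHERF1 knockdown (0.82). These genes were taken by smallest adjusted p within their lists, after their values were seen.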
